A study of Mus musculus with 4 samples.

Results

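The 8 transcription factors described here, Twist1, Twist2, Snai1, Snai2, Zeb1, Zeb2, Prrx1 and Prrx2, are those by which mesenchymal cells are commonly recognised. All probe sets annotated to a single gene, where that gene is one of these factors, were taken, which gave 21 of 45037 non-control probe sets and 8 of 18193 genes with a probe set of their own. The arrays hold 4 lines of primary embryonic fibroblasts of the mouse, taken at passage 3, which are connective tissue cells cultured from embryos without immortalisation. In the 2 RBP2-/- lines the gene for RBP2, now called Kdm5a, is inactivated. The other 2 lines are wild type, and each line has 1 Affymetrix array. The strain, embryo age and sex of the lines, the deleted part of Kdm5a and the way cultures were started could not be learned from the sources used here. The design text calls the lines of each genotype independent. Each p-value weighs the spread between lines of a genotype, drawn towards that of probe sets of similar brightness. With 1 array per line, differences of line, culture and array cannot be told apart in it.

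RBP2 is a histone demethylase that acts on methylated lysine 4 of H3, which marks active promoters, so the comparison asks whether these factors are transcribed at another level without it. Twist1 and Twist2 are basic helix-loop-helix proteins that bind E-box DNA as dimers, often with E proteins. Snai1 and Snai2 are zinc finger proteins, and Zeb1 and Zeb2 combine zinc fingers with a homeodomain. Both pairs bind E-boxes of the form CAGGTG and repress epithelial genes such as Cdh1, which encodes E-cadherin. Prrx1 and Prrx2 are paired-related homeodomain proteins of limb and craniofacial mesenchyme. In embryos these factors accompany epithelial-mesenchymal transition (EMT), the change by which epithelial cells detach and become migratory, and fibroblasts normally keep expressing them.

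All 8 factors had at least 1 probe set bright enough to be tested in these lines, and none passed the test for a difference between genotypes. Values are log2 of quantile-normalized signal plus a pseudocount of 9, and a log2 fold change, given ± its standard error (SE), is RBP2-/- minus wild type on that scale, which understates the change of dim probe sets. Of the 21 member probe sets, 18 were kept by a filter that takes the upper 60% by mean over all 4 arrays. With limma, 0 of the 18 passed an adjusted p of 0.05, where 0.0037% of all 27022 kept probe sets did (1 probe set, of the chemokine gene Cxcl12). At an unadjusted limma p under 0.05 there were 2 of 18, or 11.1%, where 2.98% of all kept probe sets were. The estimate lay above 0 for 10 and below 0 for 8, with a median of 0.077, against 0.0031 over all kept probe sets. Its median size without sign was 0.23, beside 0.21 over all kept probe sets.

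The arrays differed in brightness as deposited, with trimmed means of 78.3 and 152.1 in RBP2-/- replicates 1 and 2 and 61.9 and 101.1 in wild-type replicates 1 and 2, which is why they were normalized. Wild-type replicate 1 stood apart, correlating at 0.927 to 0.929 with the other arrays across kept probe sets, while those correlated at 0.948 to 0.965 among themselves. Kdm5a did not pass on any of its 5 kept probe sets. The brightest had 6.40 and 6.49 in RBP2-/- against 6.72 and 7.65 in wild type, or -0.74 ± 0.34 (SE). The one with the lowest estimate had 4.52 and 5.21 in RBP2-/- against 5.84 and 6.39 in wild type, or -1.24 ± 0.41 (SE). The remaining kept ones had log2 fold changes of -0.25, 0.15 and 0.24. Which part of Kdm5a the probes read relative to the deletion is not known. Fibroblast markers matched the label. All 14 were kept, and their summed normalized signal was 52469 and 56079 in RBP2-/- lines and 51372 and 56951 in wild-type lines. That sum is mostly of very bright genes such as Vim and Fn1, and 8 of the 14 were lowest on wild-type replicate 1. Among them, Pdgfra had a normalized signal of 168 and 448 in RBP2-/- and 43.6 and 479 in wild type. Of 13 epithelial markers 10 were kept, with a sum of 723 and 945 in RBP2-/- and 1049 and 899 in wild type, and the defining markers Cdh1, Cldn7 and Esrp1 were too dim. Without Epcam, read by a probe set that can bind several transcripts, the sums were 417 and 475 in RBP2-/- and 450 and 506 in wild type. Sums for macrophage and other leukocyte markers (5 of 9 kept) were 251 and 266 in RBP2-/- against 392 and 289 in wild type. Sums for endothelial (4 of 6) and skeletal muscle (3 of 5) markers overlapped between genotypes. Neural ones (4 of 5) summed to 899 and 954 in RBP2-/- against 961 and 978 in wild type, with 2 estimates above 0 and 2 below. Erythroid ones (2 of 4) summed to 68 and 48 in RBP2-/- against 104 and 80 in wild type. Both genes were dim and neither passed, with Klf1 at -1.32 ± 0.35 (SE) and Hba-a1 at 0.99 ± 0.53 (SE). The part of these cells in the values below was not tested, and in bulk RNA fewer cells of a type and less RNA per cell cannot be told apart.

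**Figure D1:**
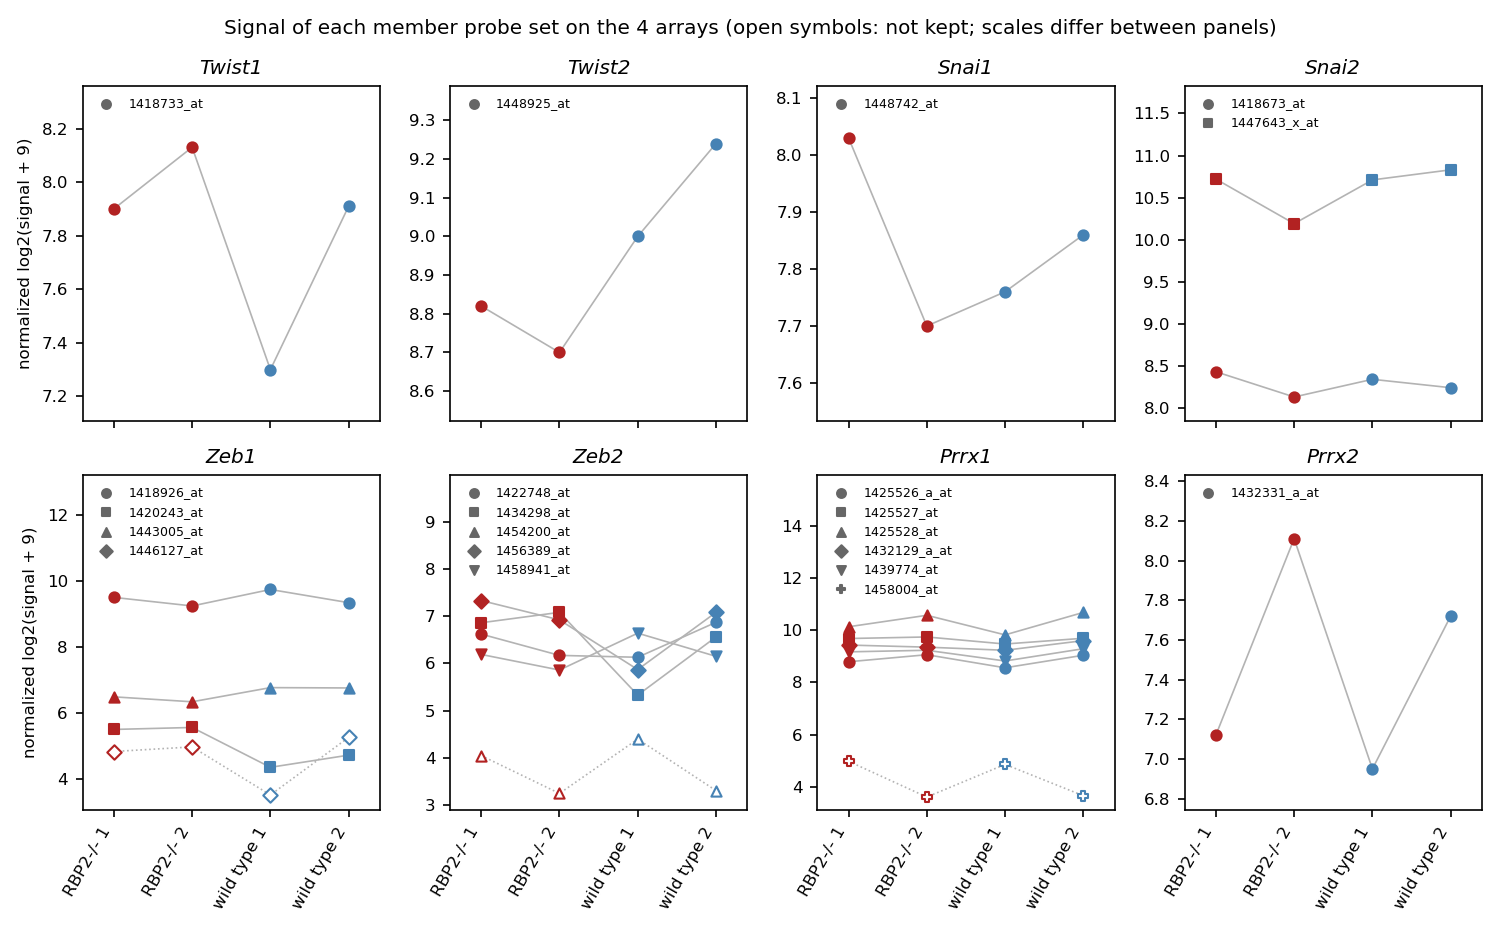
Normalized log2(signal + 9) of the 21 member probe sets on the 4 arrays, 1 panel per gene, with RBP2-/- lines in red at the left and wild-type lines in blue. Symbols stand for probe sets, open ones were too dim to be kept, grey lines only join the values of 1 probe set, and the vertical scales differ. Most Prrx1, Zeb2 and Twist1 probe sets dip on wild-type replicate 1.

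The Twist pair gave estimates on opposite sides of 0. Twist1, which is needed for cranial and limb mesenchyme, had a log2 signal of 7.90 and 8.13 in RBP2-/- lines and 7.30 and 7.91 in wild-type lines. The groups overlapped, since wild-type replicate 2 was slightly above RBP2-/- replicate 1 and only wild-type replicate 1 was low. The log2 fold change of Twist1 was 0.40 ± 0.28 (SE), its 95% interval ran from -0.23 to 1.04, and the limma adjusted p was 1.00. Without wild-type replicate 1 it was 0.10. Twist2, also called Dermo1 and active in dermal precursors, had 8.82 and 8.70 in RBP2-/- and 9.00 and 9.24 in wild type. Here both RBP2-/- arrays lay below both wild-type arrays, as 14.9% of all kept probe sets did. The log2 fold change of Twist2 was -0.36 ± 0.21 (SE), its interval ran from -0.84 to 0.12, and the limma adjusted p was 1.00. Leaving out any 1 array gave values between -0.48 and -0.24. Whether Twist1 and Twist2 differ in their response was not tested.

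Among the partners of such proteins, the E proteins Tcf3, Tcf4 and Tcf12 and the inhibitors Id1 to Id4, which bind E proteins without binding DNA, 0 of 7 passed in either direction in limma, 0 had an unadjusted p under 0.05 and 6 estimates lay above 0. Id4 had 7.12 and 6.81 in RBP2-/- and 6.47 and 6.66 in wild type, so the groups did not overlap, with a log2 fold change of 0.40 ± 0.28 (SE). Id2 had 6.21 and 7.95 in RBP2-/- against 6.04 and 6.78 in wild type, with 0.67 ± 0.53 (SE), and RBP2-/- replicate 2 alone was high. Tcf12 and Id3 had log2 fold changes of 0.28 and 0.16, which ranged from -0.047 to 0.61 and from 0.019 to 0.30 with 1 array left out. Of the 7 genes, 6 were lowest on wild-type replicate 1.

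Neither Snail factor passed the test. Snai1, a repressor induced early in EMT, had 8.03 and 7.70 in RBP2-/- lines and 7.76 and 7.86 in wild-type lines. The wild-type values lay between those of the RBP2-/- lines. The log2 fold change of Snai1 was 0.059 ± 0.24 (SE), and its 95% interval from -0.49 to 0.61 corresponds to 0.713-fold to 1.52-fold. Snai2, also called Slug, had 8.43 and 8.13 in RBP2-/- and 8.34 and 8.24 in wild type on the probe set annotated to its RefSeq mRNA, 1418673_at. Again the wild-type values lay within the RBP2-/- ones. Its log2 fold change was -0.013 ± 0.23 (SE), with an interval from -0.53 to 0.50, and it was 0.091 with median-centred or unscaled arrays and 0.026 with trimmed means. The other Snai2 probe set, 1447643_x_at, is of a kind that can bind several transcripts. It had 10.72 and 10.19 in RBP2-/- and 10.71 and 10.83 in wild type, with a log2 fold change of -0.31 ± 0.21 (SE). Only RBP2-/- replicate 2 was low there, and without it the value was -0.048. All of these Snail probe sets were lowest on RBP2-/- replicate 2, and the limma adjusted p of each was 1.00.

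Among the promoters looked up, that of Snai1 holds the E-box that Snail proteins bind, and its sequence is shown for that reason. Of the 8 genes, 6 had an entry in the RefSeq promoter table of GRCm38.p6, with 9 windows of 250 bases before an annotated start, since Zeb2 has several starts. CAGGTG, read on both strands, was found in 1 of the 9 windows, that of Snai1, while 17.2% of all 32851 windows hold it. The broader CANNTG, which includes CAGGTG, was likewise in 1 of 9, against 66.2% of all windows. The site begins 126 bases before the Snai1 start (position -126), on chr2:167537945-167538194, plus strand, and capitals mark it as CACCTG, the reverse complement.
Snai1: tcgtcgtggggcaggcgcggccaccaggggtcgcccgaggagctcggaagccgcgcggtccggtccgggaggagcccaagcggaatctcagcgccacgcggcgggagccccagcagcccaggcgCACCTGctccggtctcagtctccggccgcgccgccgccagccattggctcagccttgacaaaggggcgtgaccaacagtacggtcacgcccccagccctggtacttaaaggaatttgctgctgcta
The window of Snai1 had an observed over expected CpG ratio of 0.882, above that of 87.1% of all windows, while that of Prrx1 had 0.321, near the median of 0.373. A letter match is a description of the sequence and says nothing of binding in these cells.

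Both ZEB genes had probe sets with estimates on either side of 0, and none passed. Zeb1 is needed for skeletal and neural crest derivatives, and its brightest probe set, 1418926_at, is annotated to the RefSeq mRNA. It had 9.51 and 9.25 in RBP2-/- lines and 9.75 and 9.35 in wild-type lines, which overlap. The log2 fold change of this Zeb1 probe set was -0.17 ± 0.22 (SE), and the interval ran from -0.68 to 0.33. A second Zeb1 probe set, 1443005_at, had 6.49 and 6.34 in RBP2-/- and 6.77 and 6.76 in wild type, with both RBP2-/- arrays lower. Its log2 fold change was -0.35 ± 0.27 (SE). The third kept one, 1420243_at, ran the other way, with 5.50 and 5.56 in RBP2-/- and 4.35 and 4.72 in wild type. As deposited it had 26.4 and 58.1 in RBP2-/- and 9.0 and 17.6 in wild type, so it is dim, and the annotation gives no accession for it. Its log2 fold change of 0.99 ± 0.41 (SE), with an interval from 0.053 to 1.93, had an unadjusted limma p of 0.0408 and an adjusted p of 1.00. It was 1.34 with a pseudocount of 1 and 0.58 with a pseudocount of 32. The fourth Zeb1 probe set, 1446127_at, was not kept, with a deposited signal of 14.2 and 33.2 in RBP2-/- and 2.1 and 29.3 in wild type.

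Zeb2, also called SIP1, binds receptor-activated SMAD proteins and acts in neural crest. Its probe set annotated to the RefSeq mRNA, 1422748_at, had 6.62 and 6.17 in RBP2-/- lines and 6.13 and 6.87 in wild-type lines, with a log2 fold change of -0.10 ± 0.35 (SE). The groups overlapped fully. On 1434298_at the values were 6.86 and 7.08 in RBP2-/- and 5.33 and 6.56 in wild type, so both RBP2-/- arrays were higher, as 14.6% of all kept probe sets were. The log2 fold change on 1434298_at was 1.02 ± 0.41 (SE), or 2.03-fold, with an interval from 0.088 to 1.95, an unadjusted limma p of 0.0354 and an adjusted p of 1.00. It was 0.41 without wild-type replicate 1. The brightest Zeb2 probe set, 1456389_at, had 7.33 and 6.92 in RBP2-/- and 5.87 and 7.08 in wild type. Its log2 fold change of 0.65 ± 0.41 (SE) became 0.041 without wild-type replicate 1, the only array on which it was low. The remaining kept one, 1458941_at, had 6.19 and 5.86 in RBP2-/- against 6.64 and 6.15 in wild type, and a log2 fold change of -0.37 ± 0.32 (SE). For Zeb2 the kept probe sets thus gave 2 estimates above 0 and 2 below, between -0.37 and 1.02, and 1454200_at was not kept, with a deposited signal of 5.3 and 0.6 in RBP2-/- and 9.6 and 0.9 in wild type. Which exons or transcript ends these probe sets read is not given in the annotation used here.

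**Figure D2:**
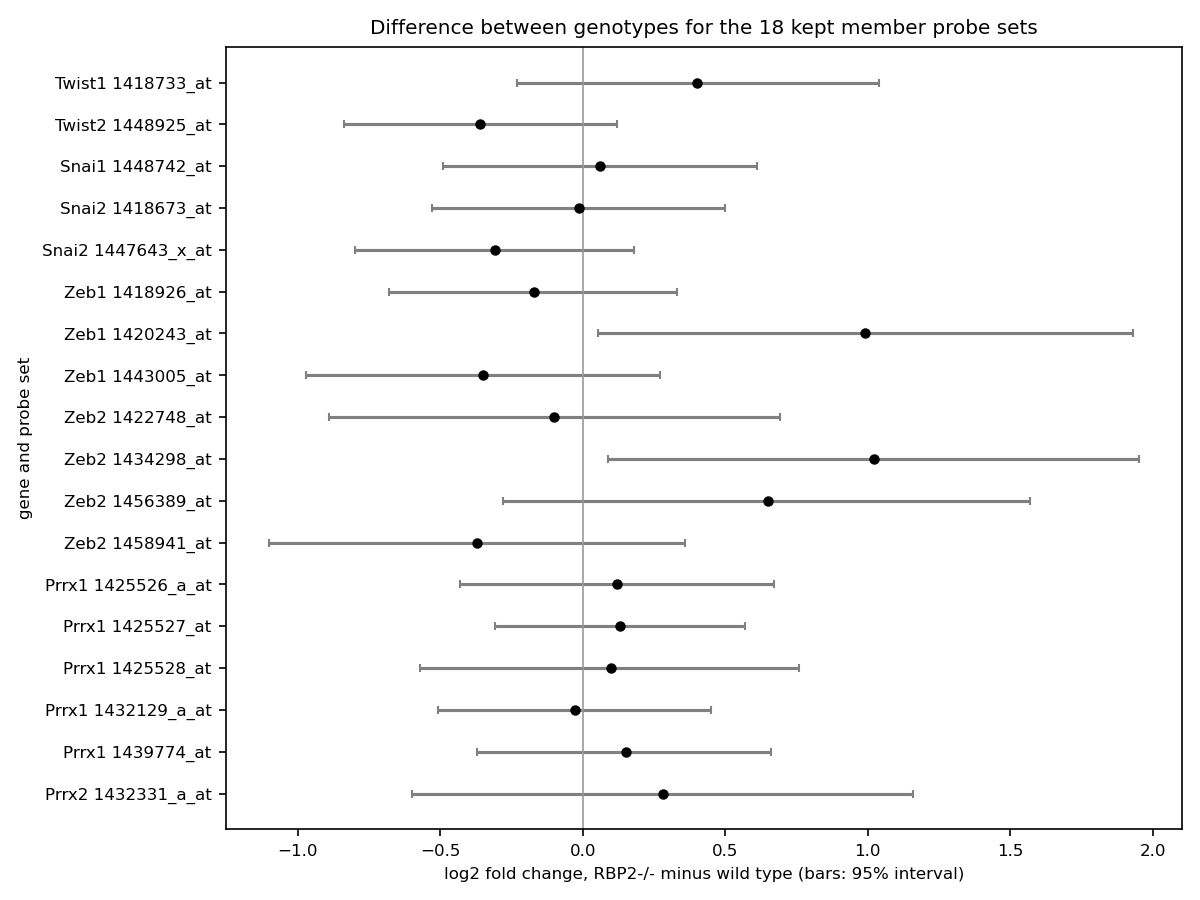
Log2 fold change, RBP2-/- minus wild type, of the 18 kept member probe sets (points) with 95% limma intervals (bars), ordered by gene. The intervals of Zeb1 1420243_at and Zeb2 1434298_at lie above 0 before adjustment for 27022 probe sets, while all 5 Prrx1 intervals span 0 within -0.57 to 0.76.

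The 5 kept probe sets of Prrx1 gave similar estimates, all near 0. Prrx1 marks limb bud mesenchyme and, in adults, fibroblast progenitors. Its brightest probe set, 1425528_at, had 10.13 and 10.57 in RBP2-/- lines and 9.82 and 10.68 in wild-type lines. Both RBP2-/- values lay between the wild-type ones. Its log2 fold change was 0.10 ± 0.29 (SE), and the values of the other kept ones ran from -0.028 on 1432129_a_at to 0.15 on 1439774_at. That of 1432129_a_at was 0.11 with median-centred or unscaled arrays and 0.039 with trimmed means. On 1425527_at the log2 signal was 9.68 and 9.74 in RBP2-/- and 9.47 and 9.69 in wild type, with a log2 fold change of 0.13 ± 0.19 (SE) and an interval from -0.31 to 0.57, or 0.807-fold to 1.49-fold. On 1425526_a_at the log2 signal was 8.79 and 9.06 in RBP2-/- and 8.56 and 9.04 in wild type. All 5 were lowest on wild-type replicate 1, and without that array 4 of them had estimates below 0, with 0.023 on 1425527_at. These probe sets share a gene and are not independent measures of it. The sixth, 1458004_at, was not kept, with a deposited signal of 16.4 and 4.5 in RBP2-/- and 15.9 and 3.8 in wild type.

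Prrx2, a relative of Prrx1 in the same tissues, had 1 probe set and, of the 18 kept, the widest spread between the RBP2-/- lines, with an SD of 0.69. Its log2 signal was 7.12 and 8.11 in RBP2-/- lines and 6.95 and 7.72 in wild-type lines. In both genotypes the line numbered 2 was higher, by 0.88 on average, and the genotypes overlapped. Prrx2 had a log2 fold change of 0.28 ± 0.38 (SE), and the interval ran from -0.60 to 1.16. It was -0.21 without RBP2-/- replicate 2 and 0.77 without RBP2-/- replicate 1. Over the 18 kept member probe sets, lines numbered 2 were higher than lines numbered 1 for 12 and lower for 6, with a median difference of 0.15, against 0.00017 over all kept probe sets.

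The array on which a member was lowest followed 2 patterns. Wild-type replicate 1 was lowest for 11 of the 18 kept probe sets, or 61.1%, where it was lowest for 31.3% of all kept probe sets. These 11 covered Twist1, Prrx1, Prrx2 and parts of Zeb1 and Zeb2. All 5 kept Prrx1 probe sets are among them, and probe sets of 1 gene are not independent, so the share does not count genes. Of the 14 fibroblast markers 8 were lowest on the same array, among them Dcn, Lum and Pdgfra. Of the rest, 3 were lowest on RBP2-/- replicate 1, 2 on RBP2-/- replicate 2 and 1 on wild-type replicate 2. Col5a1 was highest on wild-type replicate 1, at 12.35. The part of these markers in the members' values was not tested. RBP2-/- replicate 2 was lowest for the other 7, where it was lowest for 23.9% of all kept probe sets. These covered Twist2, Snai1, Snai2 and the rest of Zeb1 and Zeb2. The RBP2-/- arrays did not overlap with the wild-type arrays for 4 of the 18, or 22.2%, with 2 above and 2 below, where 29.5% of all kept probe sets did not overlap. Of the intervals, 12 lay within a log2 fold change of 1 in either direction and 6 reached past it. Among the 6 probe sets annotated to a RefSeq mRNA, of Twist1, Twist2, Snai1, Snai2, Zeb1 and Zeb2, estimates ran from -0.36 to 0.40.

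**Figure D3:**
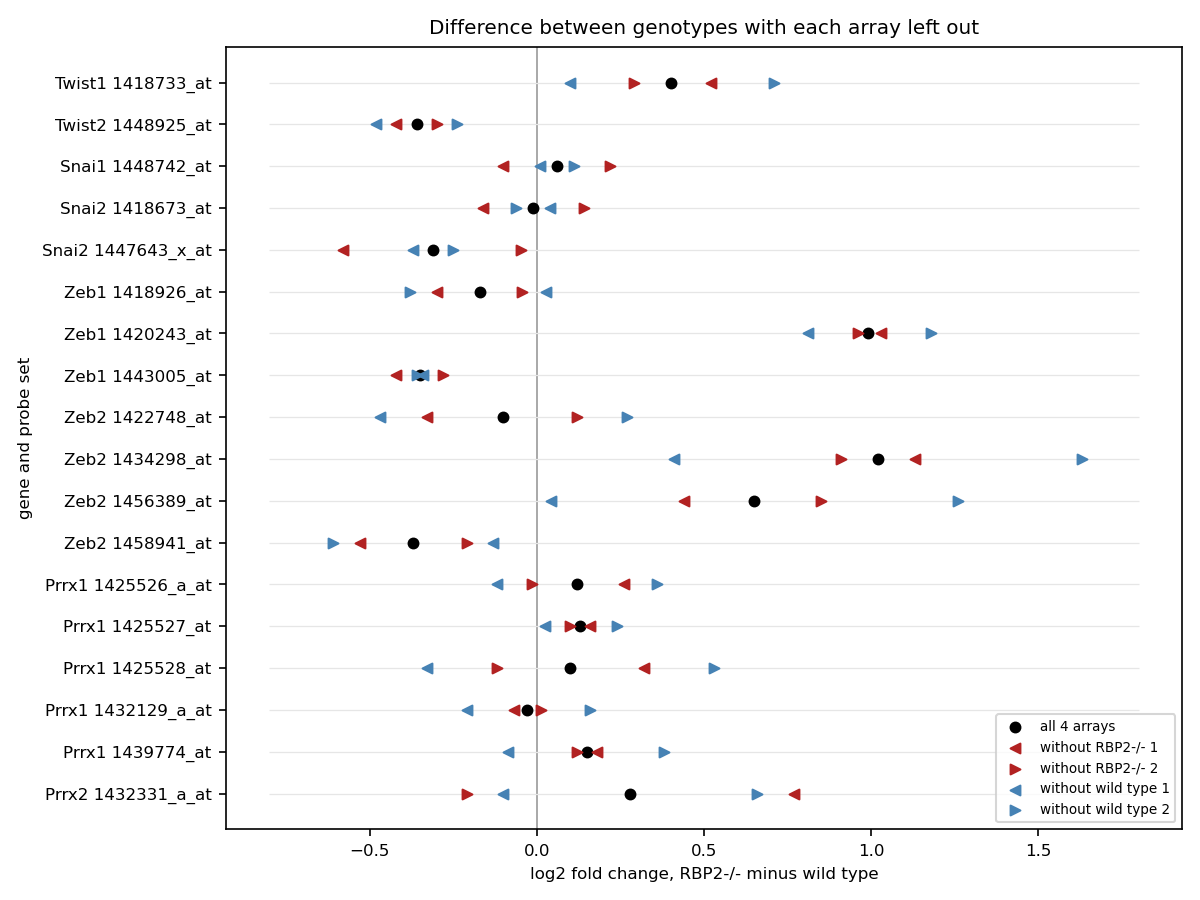
Log2 fold change, RBP2-/- minus wild type, of the 18 kept member probe sets with all 4 arrays (black) and with each array left out (red for RBP2-/-, blue for wild type). For Zeb2 1456389_at the wild-type arrays give the ends of the range, 0.041 and 1.26.

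By the root mean square difference of log2 values over the 4 arrays, each gene centred on its own mean and read on its brightest probe set, the closest of 13097 genes were sought for the members that varied most. For Zeb2, with a range of 1.46, they were Sec16b at 0.014, Tmem150b at 0.028 and Slc66a1 at 0.029. For Prrx2, with a range of 1.15, they were Ifi202b at 0.025, Scara3 at 0.034 and Pros1 at 0.038. With 4 points many genes fall close by, and the measure says nothing of shared function.

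The genes for proteins that Snail and ZEB factors recruit or depend on did not pass the test. Among corepressors, 0 of 15 measured genes passed and 0 had an unadjusted limma p under 0.05, 4 estimates lay above 0 and 11 below, and the median log2 fold change was -0.087. Hdac1, a histone deacetylase, had 9.57 and 9.73 in RBP2-/- and 9.95 and 9.85 in wild type, or -0.25 ± 0.19 (SE). Kdm1a, another H3K4 demethylase that Snai1 recruits, had 9.31 and 9.26 in RBP2-/- and 8.85 and 9.19 in wild type, or 0.26 ± 0.21 (SE). Ajuba had a log2 fold change of 0.26 and Ctbp1 had -0.21. Among genes that set the stability of Snail and Twist proteins, 0 of 15 passed and 0 had an unadjusted p under 0.05, with 8 estimates above 0, 7 below and a median of 0.049, or 0.16 relative to all kept probe sets when each array was instead centred on its median. The ubiquitin ligase gene Mdm2 had 9.76 and 9.40 in RBP2-/- against 9.25 and 9.11 in wild type, or 0.40 ± 0.21 (SE). Fbxw7 and Usp7 had log2 fold changes of 0.53 and -0.33, which ranged from 0.16 to 0.91 and from -0.50 to -0.16 with 1 array left out. Btrc had -0.62, or 0.0028 without RBP2-/- replicate 2, the only array on which it was low.

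Upstream inducers, among them TGF-beta ligands, receptors and SMAD proteins, had 0 of 29 measured genes past the limma threshold. An unadjusted limma p under 0.05 was seen for 2 of the 29, beside 2.98% of all kept probe sets. Of the inducers, 17 estimates lay above 0 and 12 below, with a median of 0.038. Hmga2, a chromatin protein that activates Snai1 and Twist1 in TGF-beta-treated epithelium, had 12.52 and 12.31 in RBP2-/- lines and 11.66 and 12.07 in wild-type lines. Its arrays did not overlap, and the log2 fold change was 0.55 ± 0.19 (SE), with an unadjusted limma p of 0.0183 and an adjusted p of 1.00. The ETS factor Etv5 had 7.29 and 7.50 in RBP2-/- and 6.69 and 6.89 in wild type, or 0.60 ± 0.26 (SE). Its relative Etv4 had 1.16, or 0.18 without wild-type replicate 1, and the receptor Met had 0.69, or 0.042 without the same array.

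Epithelial genes listed as repressed by these factors had no member past the threshold, and repression in these lines was not measured. Of 33 genes 24 were kept, of which 2 had an unadjusted limma p under 0.05, beside 2.98% of all kept probe sets. Estimates of the 24 lay above 0 for 13 and below for 11, with a median of 0.068. That median was -0.0092 with median-centred or unscaled arrays and -0.0088 with trimmed means. Cdh1, the best known target, had 1 probe set, which was too dim to be kept, with a deposited signal of 12.6 and 10.1 in RBP2-/- and 5.7 and 24.6 in wild type. Those of Cldn3, Cldn7, Esrp1, Muc1, Ovol2, Prss8, Rab25 and Tjp3 were too dim as well. Pkp3, a desmosomal protein, had 5.60 and 5.72 in RBP2-/- and 4.32 and 4.19 in wild type, or a log2 fold change of 1.40 ± 0.41 (SE) and a limma adjusted p of 1.00. Ap1m2, an adaptor subunit for sorting in epithelia, ran the other way, with 4.11 and 4.71 in RBP2-/- and 5.87 and 5.52 in wild type, or -1.29 ± 0.43 (SE). Both genes were dim. As deposited, Pkp3 had 28.8 and 67.1 in RBP2-/- and 8.7 and 9.6 in wild type. Ap1m2 had 5.8 and 25.1 in RBP2-/- and 35.5 and 37.1 in wild type. Llgl2 and Cldn1 had 0.78 and 0.94, with intervals from -0.05 to 1.61 and from -0.14 to 2.03. They were dim too, with a deposited signal in wild type of 20.0 and 20.3 for Llgl2 and 17.0 and 7.8 for Cldn1. In RBP2-/- it was 31.6 and 73.8 for Llgl2 and 21.2 and 60.5 for Cldn1. Epcam, an epithelial adhesion protein, was read by a probe set that can bind several transcripts, with 8.30 and 8.90 in RBP2-/- and 9.25 and 8.65 in wild type, and its log2 fold change of -0.35 ± 0.29 (SE) missed the threshold.

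The E-box that these repressors bind was more frequent before the starts of the epithelial genes than before starts in general. Of the 33 genes 21 had an entry in the promoter table, with 27 windows, of which 16 held CAGGTG on either strand, or 59.3%, against 17.2% of all windows. The genes were listed for their repression by these factors, so this share is a description of the list. Crb3 and Ap1m2 are shown because their windows held more than 2 sites, while Cldn7, Epcam, Lama5, Muc1, Ocln and Rab25 each had a window with 2. Capitals mark CAGGTG or its reverse complement CACCTG, and the letters run 5′ to 3′ up to the base before the start. They lie at chr17:57061951-57062200 on the plus strand and chr9:21312334-21312583 on the minus strand of GRCm38.p6.
Crb3: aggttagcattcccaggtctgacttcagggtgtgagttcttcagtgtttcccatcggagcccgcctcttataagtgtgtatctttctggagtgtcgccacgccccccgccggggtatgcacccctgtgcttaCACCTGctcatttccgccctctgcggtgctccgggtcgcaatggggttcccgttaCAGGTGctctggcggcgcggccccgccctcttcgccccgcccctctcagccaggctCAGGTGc
Ap1m2: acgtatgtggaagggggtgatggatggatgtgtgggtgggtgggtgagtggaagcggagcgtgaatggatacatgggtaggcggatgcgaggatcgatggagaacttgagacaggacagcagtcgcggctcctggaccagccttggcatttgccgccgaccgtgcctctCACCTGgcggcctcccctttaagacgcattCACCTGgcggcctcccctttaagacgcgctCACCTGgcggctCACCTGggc
The sites begin at -118, -63 and -7 in Crb3 and at -81, -51, -21 and -9 in Ap1m2. Crb3, a polarity protein, had a log2 fold change of -0.49. Neither gene passed, and binding at the sites was not measured.

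**Figure D4:**
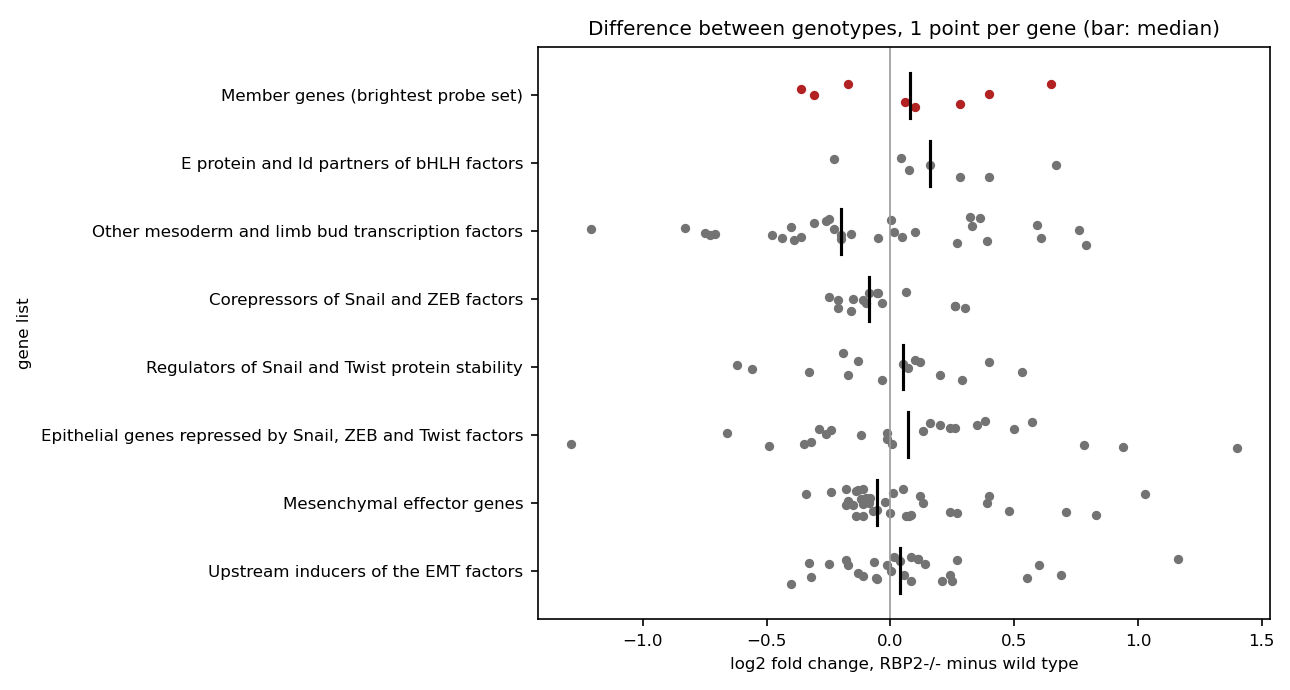
Log2 fold change, RBP2-/- minus wild type, of the 8 member genes (red, brightest probe set) and of the measured genes of 7 related lists (grey), with 1 point per gene and a bar at each median. Medians lie between -0.20 and 0.16, and no gene shown passed an adjusted p of 0.05.

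Mesenchymal effector genes, the structural output of this state, had 0 of 35 measured genes past the limma threshold and 0 with an unadjusted p under 0.05, with 16 estimates above 0, 19 below and a median of -0.056. Dcn, a small proteoglycan, had 7.19 and 7.62 in RBP2-/- against 6.25 and 7.13 in wild type, or 0.71 ± 0.35 (SE). S100a4, once named fibroblast-specific protein, had 11.85 and 12.38 in RBP2-/- and 11.54 and 11.88 in wild type, or 0.40 ± 0.22 (SE). Lum had 1.03, or 0.033 without RBP2-/- replicate 2, and Col1a2 had -0.18 with an interval from -0.51 to 0.15. Of this list 14 genes also stand in another, mostly as fibroblast markers.

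Other transcription factors of mesoderm and limb bud had 0 of 31 measured genes past the limma threshold. An unadjusted limma p under 0.05 was seen for 1 of the 31, beside 2.98% of all kept probe sets. Of these factors, 13 estimates lay above 0 and 18 below, with a median of -0.20, or 0.073 without RBP2-/- replicate 1. Hand1, a basic helix-loop-helix protein that can dimerise with Twist1, had 5.84 and 6.18 in RBP2-/- lines and 7.00 and 6.68 in wild-type lines. Its arrays did not overlap, and the log2 fold change was -0.83 ± 0.30 (SE), with an unadjusted limma p of 0.0228 and an adjusted p of 1.00. Nr2f2, a nuclear receptor of mesenchyme, had 7.79 and 7.76 in RBP2-/- and 8.29 and 8.15 in wild type, or -0.44 ± 0.22 (SE). Msx1 had 0.79, or 0.26 without wild-type replicate 1, and Tbx5 had -1.21, or -0.44 without wild-type replicate 2. Tbx5 was dim, with a deposited signal of 5.3 and 17.9 in RBP2-/- and 13.1 and 66.0 in wild type.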

How the data were processed

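RNA from 2 RBP2-/- and 2 wild-type fibroblast lines was hybridised to 1-colour Affymetrix arrays, per the labels. The deposited table holds a linear signal intensity for 45101 probe sets, 64 of them controls. How the authors summarised probes and corrected background is not stated in the labels or the table. Depth is not defined for arrays, and their number limits the precision.

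Means of the deposited values, trimmed by 2% at either end, differed 2.46-fold between arrays, more than the 10% allowed for use as deposited. Arrays were therefore quantile normalized without controls, 9 (the 25th percentile of all values) was added, log2 was taken and the upper 60% by mean log2 were kept. The difference between genotypes was tested two-sided in R 4.3.3 with limma 3.58.1 (lmFit, eBayes with a mean-dependent prior variance), with Benjamini-Hochberg adjustment over 27022 probe sets. The smallest p that an exact permutation test can reach in this design is 0.333. The procedure was also run on simulated data with 27022 probe sets, in 10 runs with 200 changed probe sets each. It called 1.41% of log2 changes of 1, 45.4% of 2 and 90.7% of 3, with 40 of 745 calls false. Simulated noise was independent and had the same spread on all 4 arrays, whereas wild-type replicate 1 stood apart in the data. With fewer changed probe sets the adjusted threshold is harder to reach, so these shares may overstate what the comparison could find.

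Names came from GEO's platform annotation, with 1 symbol for 34945 probe sets, several for 932 and none for 9160. Symbols were updated through 34741 Entrez numbers that matched RefSeq genes of GRCm38.p6, used for names only. Named are all member probe sets, Kdm5a, up to 4 genes per list with the smallest p on their brightest probe set, and the 3 genes closest in profile to the 2 members with the widest range. Crb3 is named for its sequence, Cdh1 and other dim targets for their role, and Epcam and other markers for their weight in marker sums. The members and lists were chosen with earlier results of these data known. Alternatives covered pseudocount, filter, scaling, variance model, probe sets that bind several transcripts, threshold, replicate block and each array left out.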

Additional observations from a re-analysis of the deposited data

How the results depend on the processing

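The count of 0 member probe sets past the threshold was the same in all 15 alternatives, and the smallest adjusted p of a member was 0.0723, for Zeb2 1434298_at without wild-type replicate 2. Over all probe sets the count of 1 became 0 without a filter, without scaling and without the mean-dependent variance, and 2 with median-centred arrays or arrays divided by their trimmed mean. With 1 array left out it ranged from 0 without RBP2-/- replicate 2 to 42 without wild-type replicate 2, where the lone wild-type sample is assumed to vary like the RBP2-/- pair. Leaving out wild-type replicate 1 gave 2. With the replicate block it was 49, 26 higher and 23 lower, and the block changed no call of a member. Lines of equal number deviated together only weakly (0.113 across probe sets) and no label states a shared litter, batch or day, although the arrays' analysis names place lines of equal number next to each other. Median-centred and unscaled arrays shifted all kept probe sets by a median of 0.18 and 0.38, and values there are given relative to that. Of 250 member values under alternatives, 21 changed sign, and 9 of 18 probe sets kept it throughout. By construction, the filter, variance model and replicate block leave the log2 fold change of a kept probe set as it was. Median-centred and unscaled arrays likewise give the same relative values. The 250 thus include values fixed in advance or counted again, and the share that kept its sign overstates stability. With median-centred arrays and without scaling Snai2 1418673_at had 0.091 and Prrx1 1432129_a_at 0.11, and with trimmed means they had 0.026 and 0.039. Leaving out 1 array gave -0.10 to 0.22 for Snai1, -0.16 to 0.14 for Snai2 1418673_at, -0.38 to 0.027 for Zeb1 1418926_at and -0.47 to 0.27 for Zeb2 1422748_at. It gave -0.12 to 0.36, -0.33 to 0.53, -0.21 to 0.16 and -0.085 to 0.38 for Prrx1 1425526_a_at, 1425528_at, 1432129_a_at and 1439774_at, and -0.21 to 0.77 for Prrx2. Of 196 list medians under alternatives, 24 moved by more than the spread between lines. Stability regulators had 0.16 with median-centred or unscaled arrays. Epithelial genes had 0.0047 with a pseudocount of 32, -0.014 with the upper 40% kept, -0.0092 with median-centred or unscaled arrays, -0.0088 with trimmed means and 0.15 without probe sets that can bind several transcripts. With the upper 40% kept, epithelial, erythroid, neural and muscle markers had -0.012, -1.32, -0.25 and 0.068. That filter leaves the values of kept genes as they were, so list medians moved there because dimmer genes were left out. The erythroid value was then that of Klf1 alone, without Hba-a1, and the neural and muscle lists lost Tubb3 and Myod1. Epithelial markers had -0.18 with trimmed means and -0.0056 without probe sets that can bind several transcripts. Leaving out 1 array gave -0.28 to 0.073 for mesoderm and limb factors, -0.10 to 0.076 for epithelial genes, -0.088 to 0.093 for inducers, -0.17 to 0.22 for fibroblast markers and -0.20 to 0.039 for epithelial markers. The cause of the shifts under other settings was not tested.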
